A study of Mus musculus with 2 samples.

Results

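The hedgehog genes described here are 9: the ligand gene Shh, the receptor and co-receptor genes Ptch1, Smo, Boc and Cdon, the inhibitor gene Hhip, and the transcription factor genes Gli1, Gli2 and Gli3. They were found by gene name among the 43020 gene spots of each array, and 13 probes on 22 spots measured them. All 9 were among the 23419 genes tested. Total RNA came from dissected ureters of NMRI mouse embryos at stage E18.5 and was hybridised to 2 Agilent arrays with 2 colours, each of which held 1 RNA of each genotype. The RNA labelled Tbx2/Tbx3cDKO (cDKO in the following) came from embryos with a Cre allele at one copy of Tbx18 and with both copies of Tbx2 and of Tbx3 floxed. The control RNA came from embryos with 2 wild-type copies of Tbx18, a floxed copy of Tbx2 and of Tbx3, and a second copy of each that the labels do not specify. Floxed alleles were therefore present in both groups, and the Cre allele in the cDKO group alone. Cre activity in this model is limited to cells that have expressed Tbx18, a gene of the mesenchyme around the ureter, so the urothelium is not expected among its direct targets. The male array had the cDKO RNA in AlexaFluor647 (red) and the female array had it in AlexaFluor555 (green), so that sex, dye and replicate number cannot be told apart. How many embryos gave each RNA is not stated in the labels.

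Hedgehog signalling carries a message from epithelium to mesenchyme in the ureter. SHH is made by the urothelium, binds Patched 1 on mesenchymal cells with the help of the co-receptors BOC and CDON, and thereby frees Smoothened, which turns GLI2 and GLI3 from repressors towards activators of transcription. Gli1, Ptch1 and Hhip are themselves transcribed in response to the signal, and the proteins of Ptch1 and Hhip hold the ligand back. In the developing ureter the pathway is known for its part in the growth of the mesenchyme and in its differentiation to smooth muscle.

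Depending on the channel, 72.1% to 81.6% of gene spots stood well above their background, with median signals of 12.1 to 17.0 times background. The targeted genes did not show lower transcript levels in cDKO RNA: the log2 ratio of cDKO over control was 0.74 ± 0.42 for Tbx2 (1.04 in males, 0.44 in females) and 0.66 ± 0.16 for Tbx3 (0.78 in males, 0.55 in females; SD, n = 2; limma adjusted p of 0.0273 and 0.0305). The labels do not name the deleted exons, so these probes do not check the genotype. Tbx18, the locus of the Cre allele, was at 0.81 on both arrays (limma adjusted p = 0.00778). The Y-linked genes Ddx3y and Eif2s3y were well above background in the female RNA labelled cDKO. They stood at 12.6% and 9.52% of the male cDKO signal, read in the other dye. Kdm5d and Uty, also Y-linked, were not well above background there, but their male cDKO signals were only 37.0 to 118. The X-linked gene Xist was well above background in both female RNAs and in neither male RNA. Its probes gave 918 and 1212 in the female cDKO RNA, against 957 and 1146 in the female control RNA. The female cDKO RNA thus goes against its label in part. The ratios of genes described below are therefore given for each array as well; the male array alone is the value without that RNA. Of the markers of the labelled tissue, all 18 of urothelium and epithelium and all 16 of smooth muscle passed the filter on dim probes, as did 23419 genes in all and most markers of other tissues. Of the smooth muscle markers 15 fell and 0 rose, with a median log2 ratio of -2.20.

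None of the 9 hedgehog genes passed the test across all genes, while 5 of them were higher in the cDKO RNA on both arrays. The counts were 0 higher and 0 lower (limma, adjusted p under 0.05), against 4.45% of all 23419 genes called in either direction, 2.18% higher and 2.27% lower. At an unadjusted p under 0.05, 5 members were higher and 0 lower, whereas 9.62% of all genes were higher and 6.39% lower at that level. These 5 were Boc, Smo, Gli1, Ptch1 and Gli2, the same genes whose ratio was above 0 on both arrays, which was so for 31.7% of all genes. Hhip was below 0 on both arrays, as were 28% of all genes. Shh, Gli3 and Cdon had opposite signs on the arrays, as did 40.3% of all genes. The median log2 ratio of the members was 0.36 (0.48 in males, 0.20 in females), and the median over all genes tested was 0.0045. Members of one pathway are not replicates, so these shares describe the 2 arrays and carry no test of the group. Where both cDKO RNAs are said below to lie above or below both control RNAs, the arrays compared differ in sex and dye. The share of all genes with that order is not given, so the order describes a gene and adds no weight to a call.

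**Figure D1:**
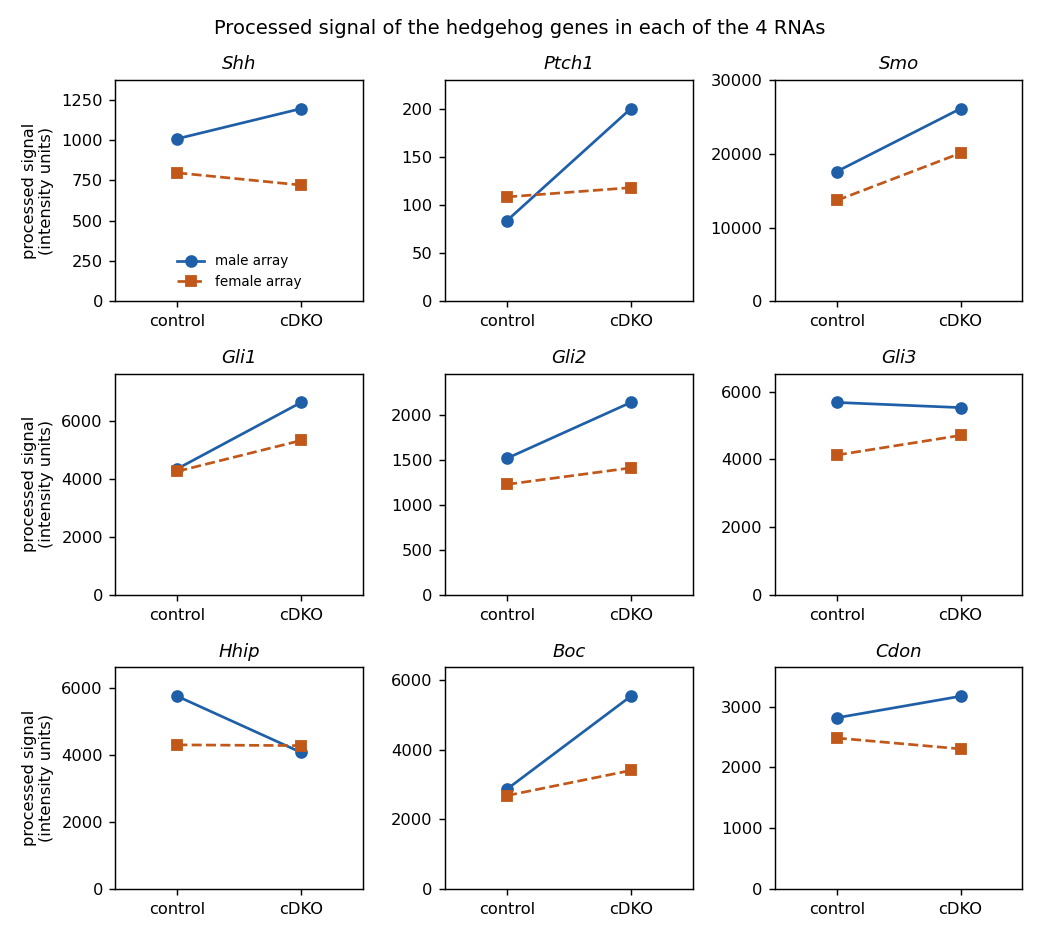
Processed signal (intensity units, each vertical axis from 0) of the brightest probe of each hedgehog gene in the control and cDKO RNA, with a line joining the 2 RNAs of each array (blue circles male, orange squares female). Heights are not comparable between genes. Smo, Boc, Gli1 and Ptch1 were higher in both cDKO RNAs than in either control RNA. Shh, Cdon and Gli3 moved in opposite directions on the arrays.

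Shh, the ligand, had a mean ratio near 0. Its probe was printed on 10 spots per array and gave mean signals of 1195 in the male cDKO RNA and 1008 in the male control RNA, and of 721 in the female cDKO RNA and 797 in the female control RNA. The cDKO RNA was thus higher in males and lower in females, and the groups overlapped. The log2 ratio was 0.20 on the male array, where the 10 spots lay between 0.040 and 0.31 (SD 0.084), and -0.13 on the female array, where they lay between -0.17 and -0.094 (SD 0.027). Every spot of the male array was above 0 and every spot of the female array below it; spots of one array share their RNAs and are no replicates of the genotype. Over both arrays the ratio was 0.033 ± 0.24 (SD, n = 2; limma adjusted p = 0.964). The 95% interval from limma, which rests mostly on a variance pooled over all probes, ran from a fold of 0.798 to 1.31. Markers of the urothelium, the tissue that makes Shh, had a median log2 ratio of 0.18, with 0 of 18 called.

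Boc, one of a pair of related co-receptors, had the highest ratio of the members. Its signal was 5529 in the male cDKO RNA against 2865 in the male control RNA, and 3399 in the female cDKO RNA against 2679 in the female control RNA. Both cDKO RNAs were above both control RNAs. The log2 ratios of 0.93 and 0.34 gave a mean of 0.64 ± 0.41 (SD, n = 2), a fold of 1.55 with a 95% interval of 0.254 to 1.02 on the log2 scale (limma adjusted p = 0.0623). Boc was above 97.4% of all genes by this mean. It passed the threshold in 4 of 10 other settings: with a filter on both channels (adjusted p = 0.0333), with robust eBayes (0.0360), with the mean of a gene's probes (0.0416) and with an intensity trend (0.00958). In these 4 settings the ratio of its only probe stayed at 0.64, so they changed the test and not the ratio. They called 4.98% to 6.83% of all genes, against 4.45% as reported. Over all 10 other settings the adjusted p of Boc ran from 0.00958 to 0.490.

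Cdon, the other co-receptor of that pair, stood near 0. At its brighter probe the signal was 3171 and 2816 in the male cDKO and control RNA, and 2304 and 2483 in the female cDKO and control RNA. The male pair and the female pair thus differed in opposite directions. The mean log2 ratio was 0.067 ± 0.19 (SD, n = 2; limma adjusted p = 0.924), and at the dimmer probe, with signals of 57.0 to 90.1, it was -0.064 ± 0.29 (0.14 in males, -0.27 in females). Within each array Boc exceeded Cdon, by 0.73 log2 units in males and 0.41 in females. With 2 arrays an exact two-sided test of such a difference cannot go below p = 0.5.

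Ptch1, the receptor that SHH binds and itself a target of the signal, was measured dimly. The brighter of its 2 probes gave 200.4 in the male cDKO RNA against 84.0 in the male control RNA, and 118 in the female cDKO RNA against 109 in the female control RNA. Both cDKO RNAs were above both control RNAs, by little on the female array. The female control RNA was above the male control RNA. Most of the difference between genotypes lay on the male array, where the log2 ratio was 0.86 against 0.076 on the female array. The mean was 0.47 ± 0.55 (SD, n = 2; limma adjusted p = 0.238). The dimmer probe, which starts 2581 bases from it on mm9, gave 0.38 and 0.25, with signals from 42.5 to 76.9. The ratio of both probes was above 0 on both arrays, and the size on the male array differed between them. With the processed signals in place of normexp and loess the brighter probe had a mean of 0.69. The beginning of the 2 probes is shown to tell them apart, the first 30 of 60 bases, 5′ to 3′ as in the files, from the minus strand of chromosome 13. They differ in base composition, with 53.3% of bases G or C in the brighter and 21.7% in the dimmer probe.
Ptch1, brighter probe, chr13:63612879-63612938: ttcatgtcaggtgtgagaggagggactcaa
Ptch1, dimmer probe, chr13:63610298-63610357: catttggatgttttaatttgtaaaagaaaa

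Smo, the membrane protein that Patched 1 restrains, was the member with the closest ratios on the 2 arrays. The brighter of its 2 probes gave 26150 in the male cDKO RNA against 17615 in the male control RNA, and 20113 in the female cDKO RNA against 13693 in the female control RNA. Both cDKO RNAs were above both control RNAs. The log2 ratios were 0.48 and 0.54, with a mean of 0.51 ± 0.037 (SD, n = 2; a fold of 1.42; limma adjusted p = 0.108). Smo passed in 1 of 10 other settings, the intensity trend (adjusted p = 0.0208), with its ratio unchanged at 0.51. Its adjusted p ran up to 1.00 under median centring. The dimmer probe, which starts 306 bases away on mm9, gave a smaller ratio of 0.21 ± 0.10 (0.28 in males, 0.13 in females), so that the mean of both probes was 0.36. The probes lie on the plus strand of chromosome 6 and begin as follows.
Smo, brighter probe, chr6:29711225-29711284: aatgtctagtcattttcatagtgccccaca
Smo, dimmer probe, chr6:29710919-29710978: taaaactgcaatgagcacacacagacacac

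**Figure D2:**
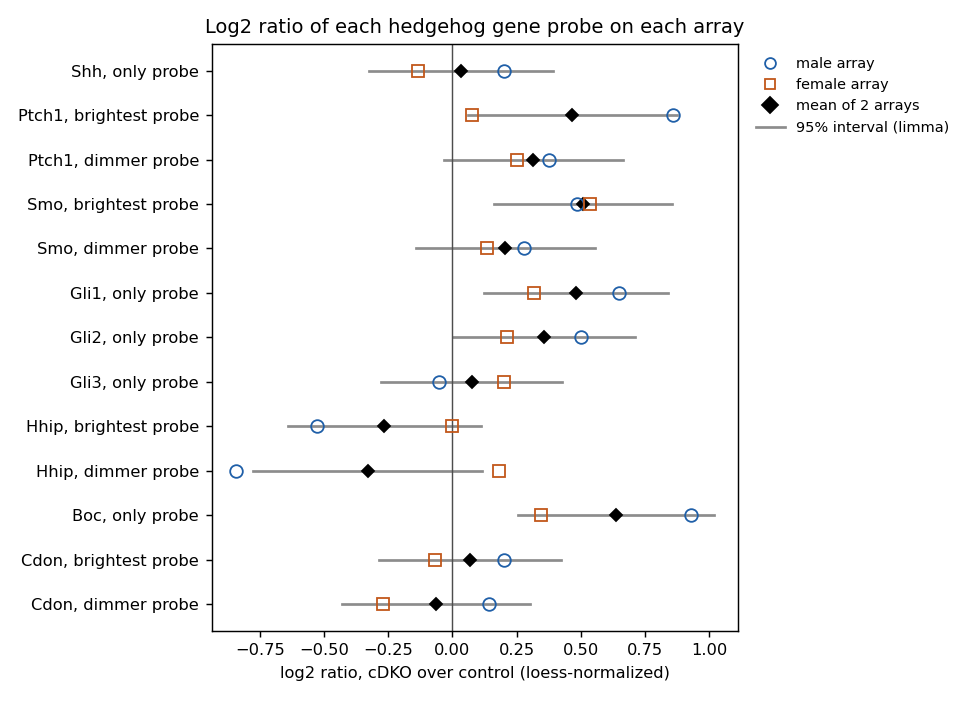
Log2 ratio of cDKO over control (horizontal axis, loess-normalized) for each of the 13 probes of the hedgehog genes in the male (blue circles) and the female hybridisation (orange squares), with the mean (black diamonds) and the 95% interval from limma (grey lines). Smo had ratios of 0.48 and 0.54, close to each other, whereas those of Hhip, Boc and Ptch1 were farther apart.

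Among the Gli factors the ratio decreased from Gli1 to Gli2 to Gli3. Gli1, the activator that is transcribed in response to the signal, gave 6658 in the male cDKO RNA against 4366 in the male control RNA, and 5345 in the female cDKO RNA against 4277 in the female control RNA. Both cDKO RNAs were above both control RNAs. Its log2 ratios of 0.65 and 0.32 had a mean of 0.48 ± 0.23 (SD, n = 2; a fold of 1.40; limma adjusted p = 0.148), and it passed in 0 of 10 other settings, with an adjusted p of 0.0519 to 0.870. Gli2, the main activator downstream of Smoothened, gave 2139 against 1519 in males and 1412 against 1229 in females. The male control RNA was above the female cDKO RNA, so the groups overlapped, while the cDKO RNA was the higher on each array. The log2 ratios of Gli2 were 0.50 and 0.21, with a mean of 0.36 ± 0.20 (SD, n = 2; limma adjusted p = 0.319). Gli3, known mostly as the repressor of the pathway, gave 5529 against 5682 in males and 4710 against 4130 in females. Its ratios of -0.051 and 0.20 had opposite signs, with a mean of 0.075 ± 0.18 (SD, n = 2; limma adjusted p = 0.910). Gli1 exceeded Gli3 by 0.70 log2 units in males and by 0.12 in females, and exceeded Gli2 by 0.15 and 0.10. The neighbours in this order differ by less than the width of their 95% intervals, which ran from 0.12 to 0.84 for Gli1, from 0.0021 to 0.71 for Gli2 and from -0.28 to 0.43 for Gli3.

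Hhip, the membrane protein that captures hedgehog ligands and is itself induced by them, was the member with the lowest ratio. The brighter of its 2 probes gave 4068 in the male cDKO RNA against 5742 in the male control RNA, and 4271 in the female cDKO RNA against 4293 in the female control RNA. Both cDKO RNAs were below both control RNAs, by little on the female array. The log2 ratios were -0.53 and -0.0013, with a mean of -0.27 ± 0.37 (SD, n = 2; limma adjusted p = 0.533), so that nearly all of the difference lay on the male array. The dimmer probe, which starts 3551 bases away on mm9, gave -0.85 in males and 0.18 in females, with signals of 803 against 1378 and of 1014 against 906. Both probes were thus lower in males, and in females they were near 0 or above it. Under median centring the mean of the brighter probe was -0.075. Ptch1 and Hhip, which both answer the signal and both hold the ligand back, differed by 1.39 log2 units in males and by 0.077 in females. The probes lie on the minus strand of chromosome 8 and begin as follows.
Hhip, brighter probe, chr8:82494280-82494339: gcagtagccttcatctgtaggttaatagtc
Hhip, dimmer probe, chr8:82490729-82490788: tatagaattatgaccatgagcatgaaagac

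The ratios of the hedgehog genes differed between the male and the female array. The median absolute difference between the male and the female ratio was 0.33 for the 9 members and 0.23 for all genes tested. The male ratio was the higher in 6 of 9 members (66.7%) and in 54.0% of all genes. Between repeated spots of one probe, a technical spread, the median SD was 0.054 in the male and 0.039 in the female hybridisation over the 399 probes printed 10 times. Median centring in place of loess moved the mean log2 ratio of Shh to 0.19, that of Gli2 to 0.54, that of Gli3 to 0.27 and that of Cdon to 0.26, with a median over all genes of 0.066.

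**Figure D3:**
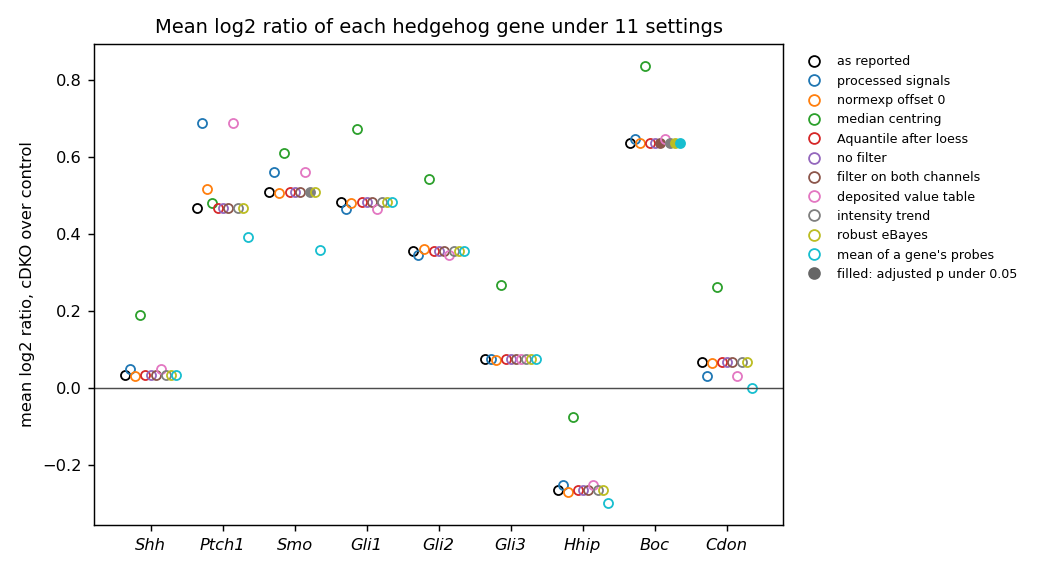
Mean log2 ratio of cDKO over control (vertical axis) of each hedgehog gene under the 11 settings, 1 point per setting in the order of the legend, filled where the adjusted p was under 0.05. Boc was filled in 4 settings and Smo in 1, and Hhip was below 0 in all 11, while the other members were above 0.

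Other genes of the pathway were read from a list of 41, of which 39 were measured, and 6 rose while 0 fell. These make up 6 of 39 genes, where 2.18% of all genes were called higher. Of the 39, 24 were above 0 on both arrays and 4 below, and the median log2 ratio was 0.16 (0.22 in males, 0.092 in females). Disp2 and Gpr161 did not pass the filter on dim probes. The genes that rose were 3 of 10 reported targets, 2 of 7 genes of other ligands and of ligand release, and 1 of 4 other receptors and co-receptors. Among 9 regulators of Gli factors and 9 genes of cilium transport, 0 were called.

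The largest changes in this list were those of Mycn and Foxl1, which have been reported as targets of hedgehog signalling. Mycn, a transcription factor of the Myc family, gave 2549 in the male cDKO RNA against 482 in the male control RNA, and 1352 in the female cDKO RNA against 370.1 in the female control RNA. The log2 ratios were 2.22 and 1.83. It rose by 2.03 ± 0.27 log2 units (SD, n = 2), which is 4.07-fold, with a limma adjusted p of 1.57e-06. Foxl1, a forkhead factor of mesenchyme next to epithelium, gave 3000.0 against 674 in males and 1924 against 686 in females, with ratios of 2.05 and 1.43, and rose by 1.74 ± 0.44, which is 3.34-fold (SD, n = 2; limma adjusted p = 1.77e-05). Both cDKO RNAs were above both control RNAs for either gene. The calls were kept in 9 of 10 other settings, all but the deposited value table, which called 0 genes in all. Bmp4, a ligand that hedgehog signalling raises in ureteric mesenchyme, gave 37340 against 23931 in males and 35581 against 19718 in females, with ratios of 0.54 and 0.82. It rose by 0.68 ± 0.19 (SD, n = 2), with a limma adjusted p of 0.0281, and the call was kept in 6 of 10 other settings. Its cDKO signals were both above both control signals as well. Foxf1, a forkhead factor that is a target in the same mesenchyme, was at 0.33 ± 0.23 (0.49 in males, 0.16 in females; limma adjusted p = 0.380) and was named after its value was seen. The targets thus differed widely, from -0.11 to 2.03, with a median of 0.37, and the other 7 did not pass.

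Scube3 and Hhat rose among the genes that prepare or carry the ligand. Scube3, a secreted protein of the family that helps lipid-bearing SHH to leave the cell, gave 3693 in the male cDKO RNA against 1468 in the male control RNA, and 2616 in the female cDKO RNA against 1423 in the female control RNA. Its ratios were 1.30 and 0.85, and it rose by 1.07 ± 0.32 log2 units (SD, n = 2; limma adjusted p = 0.00133). Both cDKO RNAs were above both control RNAs, and its second kept probe was at 0.61. Hhat, the enzyme that attaches palmitate to SHH, rose by 0.70 ± 0.28 (0.89 in males, 0.50 in females; SD, n = 2; limma adjusted p = 0.0283), but its second kept probe was at 0.19 and the mean of both probes, at 0.44, did not pass (adjusted p = 0.167). The call of Scube3 was kept in 8 of 10 other settings and that of Hhat in 4. The ligands Ihh and Dhh, relatives of Shh, were named after their values were seen. Ihh was at 0.027 in males and -0.22 in females (-0.097 ± 0.18, SD, n = 2), and Dhh at 0.37 and -0.016 (0.17 ± 0.27).

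Lrp2, or megalin, a large endocytic receptor that can bind SHH, rose among the receptors. It gave 863 in the male cDKO RNA against 159 in the male control RNA, and 530.2 in the female cDKO RNA against 373 in the female control RNA. Both cDKO RNAs were thus above both control RNAs. The log2 ratio was 2.04 in males and 0.46 in females, with a mean of 1.25 ± 1.12 (SD, n = 2) and a limma adjusted p of 0.0100. That p uses a standard error of 0.26, which rests mostly on the variance pooled over all probes. The call was lost in 4 of 10 other settings, among them robust eBayes, where the limma adjusted p was 0.632. Gas1, a co-receptor that acts beside BOC and CDON, was at 0.88 in males and 0.27 in females at its brightest probe, with a mean of 0.58 ± 0.43 (SD, n = 2; limma adjusted p = 0.101). Its 3 kept probes ran from 0.23 to 0.58, and their mean was 0.35 (limma adjusted p = 0.399). Gas1 was named after its value was seen. Lrp2 is also a gene of the proximal tubule of the kidney.

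**Figure D4:**
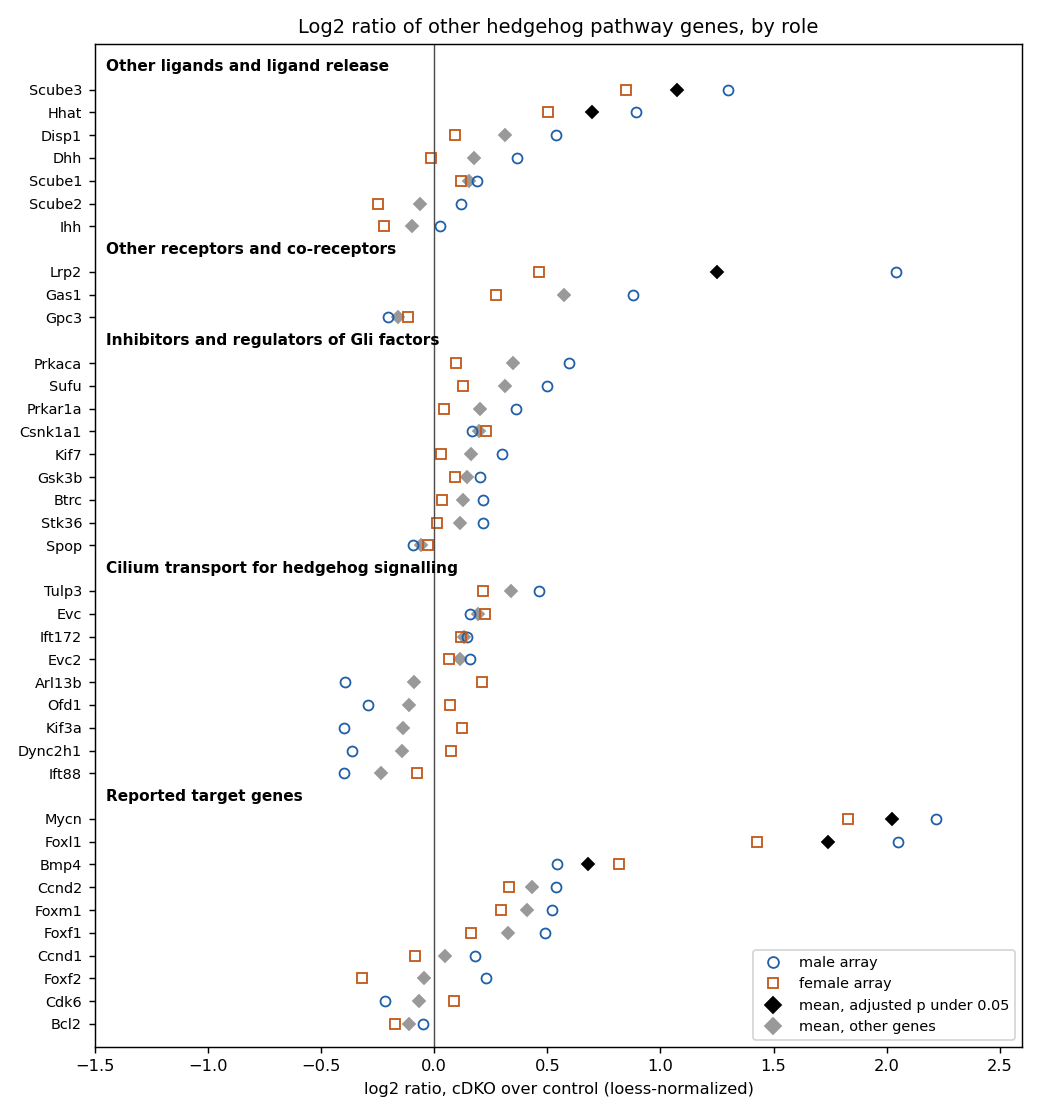
Log2 ratio of cDKO over control (horizontal axis, loess-normalized) of 38 of the 39 other hedgehog pathway genes measured, grouped by role, on the male array (blue circles) and the female array (orange squares), with the mean as a diamond, black where the adjusted p was under 0.05. Mycn and Foxl1 stand farthest to the right, and no diamond is black among the regulators of Gli factors and the cilium genes.

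The regulators of Gli factors had a median of 0.16; 8 of 9 were above 0 on both arrays and 1 below 0 on both. The cilium genes had a median of -0.091, with 4 of 9 above 0 on both arrays, 1 below and 4 of opposite sign. Prkaca, a catalytic subunit of the protein kinase that marks Gli proteins for processing, and Sufu, which holds Gli proteins in the cytoplasm, had the largest ratios of their group at 0.35 ± 0.35 and 0.31 ± 0.26 (SD, n = 2; limma adjusted p of 0.368 and 0.413). Prkaca was at 0.60 in males and 0.096 in females, and Sufu at 0.50 and 0.13. Among cilium genes Tulp3, a trafficking adaptor, was at 0.34 ± 0.18 and Ift88, a part of the transport train, at -0.24 ± 0.23 (limma adjusted p of 0.346 and 0.569). Tulp3 was at 0.47 in males and 0.22 in females, and Ift88 at -0.40 and -0.078. The median of the cilium genes was -0.29 in males and 0.12 in females, so that their direction differed between the arrays.

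Markers of other tissues moved in the same RNAs. Of 14 kidney markers 11 were measured, 8 rose and 0 fell, with a median of 1.18. Nphs1, Umod and Slc12a1, which define podocytes and the loop of Henle, did not pass the filter on dim probes. The summed signal of the 11 was 11063 and 5983 in the cDKO RNAs and 3563 and 4004 in the control RNAs, which places both cDKO RNAs above both controls. The kidney cadherin gene Cdh16, chosen after its values were seen, had ratios of 3.52 in males and 1.37 in females, beside 2.04 and 0.46 for Lrp2. The kidney markers Six2 and Lhx1, chosen in the same way, had ratios of 2.02 and 1.71 and of 2.16 and 1.97. Those of Mycn were 2.22 and 1.83. Lhx1 was not well above background in the female control RNA. Of the 11 kidney markers measured, 9 were above 0 on both arrays and 2 had opposite signs. Fibroblast and adventitia markers rose in 8 of 11 and fell in 0, with a median of 0.84, and their summed signal was 696837 and 589028 in the cDKO RNAs against 371054 and 321548 in the control RNAs. The summed signal of the smooth muscle markers was 173263 and 110249 in the cDKO RNAs against 851583 and 520735 in the control RNAs. Of 8 markers of ureteric mesenchyme, the tissue that holds the receptors and Gli factors, Tbx18 rose and 0 fell, with a median of 0.18. Tbx18 is the locus of the Cre allele, which the cDKO group alone carries, and the other 7 were not called. The summed signal of the 8, Tbx18 included, was 65316 in males and 50517 in females in the cDKO RNAs, against 50894 and 38405 in the control RNAs. The cDKO RNA was thus the higher on each array, although the male control RNA was above the female cDKO RNA. Red blood cell markers were above 0 on both arrays in 6 of 6 measured, of which 1 rose, with a median of 0.47 and a summed signal of 119752 and 103337 against 74778 and 70295. Endothelium markers rose in 2 of 10 and fell in 0, with a median of 0.15. Their summed signal was 52906 in males and 36704 in females in the cDKO RNAs, against 40975 and 30865 in the control RNAs. Here too the cDKO RNA was the higher on each array, while the groups overlapped across arrays. Of 7 nerve and glia markers measured 0 were called, with a median of 0.13 and a summed signal of 8631 and 6175 against 7913 and 6414. The part of these markers in the ratios of Boc, Smo, Gli1, Mycn, Foxl1, Scube3, Hhat, Lrp2 and Bmp4 was not tested. In RNA of a whole ureter, fewer cells of a type and less RNA per cell cannot be told apart.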

How the data were processed

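Per the file headers, Agilent Feature Extraction 10.7.3.1 quantified the authors' images. It wrote mean spot and median local background intensities, processed signal intensities (background-subtracted and dye-normalized), a log10 ratio of red over green, and flags of 0 or 1. The authors' deposited value table holds a score with no stated scale and a column median of 1. Within 0.001 log2 it equalled the signed fold of the processed signals for 100% of spots with both signals above 100. Probe coordinates are on mm9. Controls made up 1377 of 44397 spots.

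For this work, limma 3.58.1 (R 4.3.3) applied normexp with an offset of 50 to the mean intensities, then loess to each array, giving control and outlier spots a weight of 0. Repeated spots of a probe were averaged. A probe was kept if both arrays showed it well above background in the cDKO RNA, or both in the control RNA, which held for 29274 of 39429 probes. Accessions named 26412 probes through RefSeq's GRCm38.p6 table, and the file's own names served for 13017. A gene was its brightest kept probe. Ratios were turned to cDKO over control and their mean was tested against 0 (lmFit and eBayes, two-sided, Benjamini-Hochberg over kept probes, threshold 0.05), with 1 residual and 13.9 prior degrees of freedom. The p-values therefore rest mostly on a variance pooled over all kept probes, and little on a gene's own spread between the 2 arrays. They do not speak to variation beyond these 2 arrays.

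The members, the pathway and marker lists and the tests were chosen with earlier results of these data known. Named genes are all members with all their probes, the targeted genes with the Cre locus, and the called genes of each role group of the pathway list. Where a role group had none called, the 2 with the largest absolute mean were named, among those with the same sign on both arrays. Outside this rule, Foxf1, Ihh, Dhh, Gas1, Cdh16, Six2 and Lhx1 were named after their values were seen. Ddx3y, Eif2s3y, Kdm5d, Uty and Xist were named as a check of the labels. The 10 alternatives with a test were the processed signals, offset 0, median centring, Aquantile after loess, no filter, a filter on both channels, the authors' value table, averaging a gene's probes, an intensity trend and robust eBayes. Aquantile changed no ratio, so its calls equal those reported, and the authors' value table called 0 genes in all. Neither adds a check of a single gene, yet both are included in each count out of 10. Each array was also taken alone. The values of 1 gene of the pathway list are not reported here. The number of arrays limits the precision.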

Additional observations from a re-analysis of the deposited data

Results flagged for a closer look

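Shh, Gli3 and Cdon had log2 ratios of opposite sign on the male and the female array. Shh was at 0.20 in males and -0.13 in females, Gli3 at -0.051 and 0.20, and Cdon at 0.20 and -0.067. With 1 array of each sex these differences were not tested, and 40.3% of all genes tested had opposite signs.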

How the results depend on the processing

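The number of members called was 0 as reported, where 4.45% of all genes tested were called. It was 1 with a filter on both channels (5.57% of all genes), robust eBayes (5.15%) and the mean of a gene's probes (4.98%). It was 2 with an intensity trend (6.83%) and 0 in the other 6 settings. No member changed the sign of its mean in the 10 settings with a test. The median of the members was 0.20 without replicate 1 and 0.48 without replicate 2; with 1 array left, Shh turned to -0.13, Cdon to -0.067 and Gli3 to -0.051. Over all genes, 511 were called higher and 531 lower; the processed signals gave 134 and 210, median centring 163 and 157, and the authors' value table gave 0 higher and 0 lower, while an intensity trend called 936 higher and 663 lower. The higher share of the calls ran from 39.0% with the processed signals to 58.5% with the intensity trend, against 49.0%. Of the other pathway genes 6 were called, but 2 with the processed signals and 0 in the deposited value table. The cause of these differences was not tested. Aquantile left all ratios as they were. Each ratio already pairs the 2 RNAs of its array, so no further replicate block could be fitted. Dim probes, such as those of Ptch1, are limited by their signal over background.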
